A study of Camponotus fellah with 299 samples.

Results

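The gene models described here are the 100 whose brain expression followed the body length of worker ants most closely, among models with little mean relation to behavioural maturity. They were selected on the expression values themselves. Counts were scaled to CPM (the count divided by the ant's total, times 1e+06), and 8183 of 14664 gene models had a median of at least 5 CPM. Of these, 2964 had a Spearman correlation with maturity that, averaged over 3 colonies, was below 0.1 in size. Those were ranked by r, the mean over the colonies of the partial Spearman correlation of CPM with body length given age. The 50 highest are called the longer list, because their CPM was higher in longer ants, and the 50 lowest the shorter list.

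The study took single brains of the carpenter ant Camponotus fellah from colonies 2, 3 and 4, tracked how the ants behaved for a week beforehand, and counted sequenced mRNA per gene model. Body length, head width, age in months, behaviour tallies, a maturity value and a nurse-forage ratio were labelled for 289 of 299 ants, 87 in colony 2, 98 in colony 3 and the rest in colony 4. None of the ants was labelled as treated or genetically altered, so the comparisons run along the labels within colonies. Maturity is used in the orientation in which it rises with age in each colony, which is 1 minus the deposited value in colony 4. The unit of body length is not given in the labels and slopes are therefore given per labelled unit. Ants of a colony share that colony, and anything done colony by colony cannot be told apart from colony itself.

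Carpenter ant workers of one colony differ in body size, and the larger workers often have heads that are disproportionately broad. Adult ants do not grow, so a worker's size is set by how it developed as a larva, whereas its tasks change as it ages, from care of brood and queen inside the nest to foraging outside. Size and age are thus separate ways in which nestmates can differ, and both have been tied to the division of labour in ants. A brain is a mix of neurons, glia and other cells, and in such bulk samples fewer cells of a type and less RNA per cell cannot be told apart.

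Library totals lay between 19.8 and 73.2 times 1e+06 counts, and the lowest count of any member in any labelled ant was 74 reads. The deposited table does not pair the identifiers, which join a contig and a number, with gene names. The functions of the members and the cell types of the tissue were therefore not examined here. Only the 2 members with the highest r and the 2 with the lowest are given by identifier.

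Body length ran from 7.45 to 11.8 with a median of 8.75 in colony 2, from 7.59 to 12.2 with a median of 9.31 in colony 3, and from 7.52 to 12.8 with a median of 9.38 in colony 4. Long ants were few, and the 34 longest of all, left out in some of the fits below, numbered 11, 10 and 13 in colonies 2, 3 and 4. Of 21 relations of body length with other labels, 7 in each colony, the closest was with head width. Pearson's r was 0.835, 0.816 and 0.797 in colonies 2, 3 and 4, and Spearman's rho was 0.696, 0.777 and 0.711 (permutation p = 1e-05 for each, the smallest that 100000 resamples give, adjusted p = 7e-05). Without the 2 ants farthest from the median length, r was 0.814, 0.77 and 0.75. Longer ants thus had broader heads in all 3 colonies.

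Behaviour labels had smaller correlations with length. Longer ants had lower nurse-forage ratios in colony 2 (r = -0.266, permutation adjusted p = 0.043; rho = -0.291, adjusted p = 0.019; r = -0.257 without the 2 farthest ants) and in colony 3 (r = -0.289, adjusted p = 0.018; rho = -0.234, adjusted p = 0.052; r = -0.288 without them). In colony 4 the values were r = 0.092 (permutation adjusted p = 0.5) and rho = 0.033 (adjusted p = 0.82). Queen attending, the tally of attention to the queen, rose with length by rank in colony 2 (rho = 0.338, permutation adjusted p = 0.0081; r = 0.152, adjusted p = 0.25). Its rho was 0.232 in colony 3 (permutation adjusted p = 0.052) and -0.008 in colony 4 (adjusted p = 0.98). Body length also went with age in colony 2 by r (r = 0.304, permutation adjusted p = 0.018; rho = 0.093, adjusted p = 0.51; r = 0.251 without the 2 farthest ants) and in colony 4 by rank (rho = 0.271, permutation adjusted p = 0.019; r = 0.2, adjusted p = 0.11; r = 0.192 without them). In colony 3 longer ants had lower maturity by rank (rho = -0.288, permutation adjusted p = 0.018; r = -0.187, adjusted p = 0.15; r = -0.27 without them). For the library total, the smallest adjusted p over colonies was 0.42 for r and 0.18 for rho by the permutation test.

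The lists end without a gap. The last 2 members inside the longer list had r of 0.3241 and 0.323 and the next 2 outside had 0.3229 and 0.3228. For the shorter list the values were -0.3343 and -0.3333 inside and -0.332 and -0.3314 outside. Membership changed little with TMM-scaled CPM in place of CPM, which chose 92 of the 100 again, and 71 were chosen again on head width. It changed much with the bound on maturity. Bounds of 0.05 and 0.2 kept 47 and 45 of the 100, and with no bound, a setting added after seeing the data, 12 were left among the 100 extreme models. Leaving out colony 2, 3 or 4 from the choice kept 51, 24 and 43, and leaving out the 34 longest ants kept 47. The 100 are therefore the models at the ends of the ranking under one set of limits.

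The member with the highest r was evm.model.ctg33.8, with partial correlations of 0.542, 0.365 and 0.518 in colonies 2, 3 and 4. For description its values are given in the 29, 32 and 34 longest and as many shortest ants of colonies 2, 3 and 4. In colony 2 its lowest, median and highest values were 126.9, 190.6 and 281.3 CPM in the longest ants and 99.2, 130.7 and 233.6 CPM in the shortest. In colony 3 they were 121.3, 183.4 and 328.5 CPM in the longest ants and 112.9, 153.0 and 350.0 CPM in the shortest. In colony 4 they were 117.2, 206.3 and 300.5 CPM in the longest ants and 68.5, 130.5 and 261.8 CPM in the shortest. The ranges overlapped in each colony, but 28 of 29, 28 of 32 and 30 of 34 of the longest ants lay above the median of the shortest. In colony 3 the highest of these values belonged to a short ant.

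The next member of the longer list, evm.model.ctg1.258, differed less in size. In colony 2 it ranged from 99.7 to 153.9 CPM around a median of 128.7 in the longest ants and from 84.1 to 123.8 CPM around 108.6 in the shortest. In colony 3 the longest ants ranged from 94.5 to 152.8 CPM around 119.4 and the shortest from 95.8 to 153.9 CPM around 113.1. In colony 4 the longest ants ranged from 73.7 to 130.8 CPM around 107.7 and the shortest from 71.5 to 127.1 CPM around 99.2. In colony 2, 18 of the 29 longest ants stood above all the shortest, against 0 of 32 in colony 3 and 5 of 34 in colony 4.

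The lowest r belonged to evm.model.ctg8.220, with partial correlations of -0.593, -0.374 and -0.504. In colony 2 its lowest, median and highest values were 75.9, 87.2 and 96.5 CPM in the longest ants and 82.03, 98.8 and 125.2 CPM in the shortest. In colony 3 they were 76.4, 86.2 and 106.2 CPM in the longest ants and 64.9, 95.8 and 103.5 CPM in the shortest. In colony 4 they were 81.9, 98.8 and 117.4 CPM in the longest ants and 89.8, 111.2 and 136.9 CPM in the shortest. All 29 of the longest ants of colony 2 lay below the median of the shortest, as did 28 of 32 in colony 3 and 30 of 34 in colony 4, while the ranges overlapped in each colony.

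The next member of the shorter list was evm.model.ctg20.50. Its median was 245.6 CPM in the longest ants and 333.4 CPM in the shortest ants of colony 2, with ranges of 180.3 to 344.7 and 213.5 to 426.9 CPM. In colony 3 the medians were 268.9 CPM in the longest ants and 311.6 CPM in the shortest, with ranges of 142.9 to 358.5 and 96.2 to 378.5 CPM. In colony 4 they were 267.1 CPM in the longest ants and 353.6 CPM in the shortest, with ranges of 199.7 to 403.7 and 258.9 to 503.8 CPM. In colony 4, 16 of the 34 longest ants were below all the shortest. The lowest of these values in colony 3 again belonged to a short ant.

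**Figure D1:**
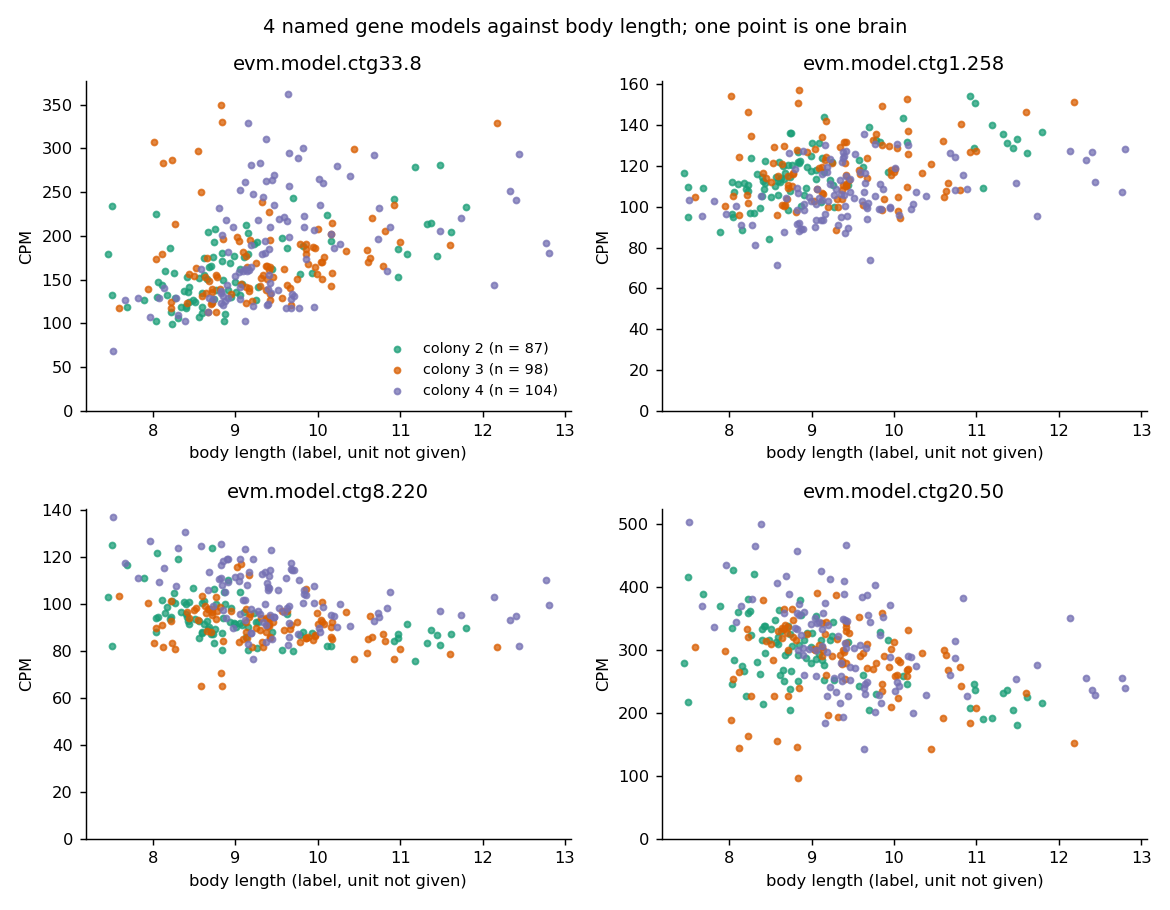
CPM of the 4 named gene models (vertical axes, starting at 0) against labelled body length (horizontal axes, unit not given), with one point per brain coloured by colony (n = 87 in colony 2, n = 98 in colony 3). The clouds of the upper pair rise and those of the lower pair fall with length, and in colony 3 a few short ants stand high in evm.model.ctg33.8 and low in evm.model.ctg20.50.

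All 50 of the longer list and all 50 of the shorter list had the same sign of partial correlation in all 3 colonies, as had 49.1% of the 2964 models within the maturity bound. These are the values that chose the members and support nothing. The median correlations were 0.434, 0.251 and 0.414 in colonies 2, 3 and 4 for the longer list and -0.483, -0.259 and -0.393 for the shorter, smallest in size in colony 3 for both lists. In a joint fit with colony, maturity and age, the median slope was 0.081 log2 per unit of length in the longer list (0.025 to 0.19) and -0.054 in the shorter (-0.13 to -0.028), with standard errors from 0.0054 to 0.035. In that fit, which holds the contrast of the choice and is read only as a description, edgeR called 50 of 50 and 50 of 50 in the direction of the choice, where 15.2% of all 10457 models tested were called higher and 14.2% lower in longer ants.

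The differences were small in fold. The ratio of the median CPM of the longest ants to that of the shortest, in the same sets of 29, 32 and 34 ants each, had a median over the longer list of 1.18, 1.06 and 1.16 in colonies 2, 3 and 4, and reached 1.50, 1.48 and 1.67. Over the shorter list its median was 0.889, 0.948 and 0.913, and its lowest values were 0.736, 0.813 and 0.755. Over all 8183 models the median ratio was 0.997, 1.00 and 1.00. These sets of ants, also used for the named models above, were not matched on age or behaviour. Their median ages in colonies 2, 3 and 4 were 14, 14 and 17.5 months in the longest ants and 11, 16 and 11 months in the shortest.

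Whether a model that followed length in some ants also did so in others was tested with lists that the tested ants did not choose. The same rule was applied to 2 colonies at a time, and the 50 and 50 models it gave were read in a fit of the colony left out. In colony 2, 30 of 50 of the longer list were called higher in longer ants, against 9.43% of all models tested, and 40 of 50 of the shorter list lower, against 9.38%. In colony 3 the counts were 10 of 50, against 2.37%, and 11 of 50, against 1.75%. In colony 4 they were 38 of 50, against 8.74%, and 30 of 50, against 7.45% (edgeR's quasi-likelihood test, Benjamini-Hochberg adjusted p under 0.05). No model of these lists was called in the opposite direction.

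The signs were more even than the calls. Of the longer lists, 50 of 50 had a positive slope in each of the left-out colonies, and of the shorter lists 50, 49 and 49 had a negative one, where 51.9%, 50.7% and 47.6% of all models had a positive slope in colonies 2, 3 and 4. The longer lists had median slopes of 0.10, 0.047 and 0.083 log2 per unit in the left-out colonies 2, 3 and 4, and the shorter lists -0.071, -0.040 and -0.051. The models of a list vary together, as shown further on, so their counts are not counts of independent events. Fewer models were called when the 34 longest ants were left out of both the choice of the lists and the fits. The counts over both lists were then 23, 0 and 29, against 70, 21 and 68 with them, and of all models 2.38%, 0% and 5.33% were called higher and 1.08%, 0% and 4.89% lower. The median slopes were 0.15, 0.040 and 0.14 log2 per unit in the longer lists and -0.059, -0.027 and -0.082 in the shorter, so they were not smaller in size in every colony. In colony 3 edgeR then called 0 of all models, with 20 of the 100 at an unadjusted p of 0.05 in the direction of the choice, against 6.2% of all models in either direction. Most signs stayed as they were, with 48, 42 and 48 positive slopes in the longer lists and 43, 44 and 48 negative slopes in the shorter.

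**Figure D2:**
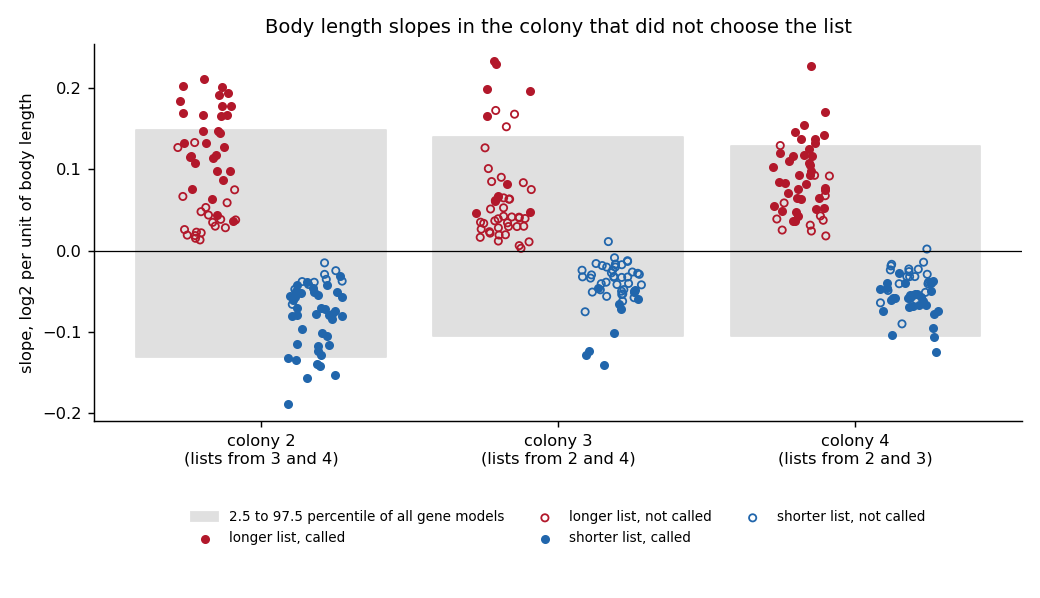
Slopes on body length (vertical axis, log2 per labelled unit) in each colony for the 50 and 50 gene models chosen in the other colonies, with longer lists in red, shorter lists in blue, filled points for called models and open points for the rest. Grey bands run from the 2.5 to the 97.5 percentile of all models tested, and the red points lie above 0 in each colony while 1 blue point in colony 3 and 1 in colony 4 do not lie below it.

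The size of the slope was then compared between colonies. The interaction of body length and colony was called in 0 of the 100 members, where 0.0478% of all models, 5 of 10457, were called (edgeR). At an unadjusted p under 0.05 the count was 7 members by edgeR, against 11.3% of all models, and 5 by limma-voom, which also called 0 members, against 8.56%. Differences between colonies in these slopes were thus not detected, which does not show that they were equal. Without the 34 longest ants, 5 members were called, against 0.67% of all models, and 51 passed an unadjusted p of 0.05, against 13.3%.

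A squared term of body length, by which a slope can differ along the range of lengths, was called in 2 of the 100 members, against 0.545% of all models. At an unadjusted p under 0.05 it was found in 19 members, against 6.05% of all models (edgeR). Both were in the longer list and had a negative squared term, a slope that lessened toward the long end. A positive squared term was found in 7 of 50 in the longer list and 42 of 50 in the shorter, against 53.4% of all models. The members were chosen by rank correlation with length in these same ants. How far that choice shapes the squared term was not tested, so these counts are read as a description. No member was called by edgeR without colony 2, without colony 4 or without the 34 longest ants, where 11, 15 and 4 passed an unadjusted p of 0.05, against 4.57%, 8.69% and 5.79% of all models.

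Head width, the second size label, gave no further call once body length was in the model. Over 287 ants, leaving out 2 with implausible head widths under 1, edgeR called 0 of 100 members and 0% of all models. At an unadjusted p under 0.05, 7 members passed by edgeR, 8 by limma-voom and 7 by DESeq2, which all called 0 after adjustment, and 3.28% of all models passed by edgeR. The slopes still leaned with the lists. In the longer list 41 of 50 were positive, with a median of 0.048 log2 per unit of head width, and in the shorter list 6 of 50, with a median of -0.029, where 50.3% of all models were positive. The median standard errors were 0.070 and 0.044. The members vary together and were chosen in the same ants on length, which goes with head width. These signs are therefore read as a description.

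Age, with length and maturity held, was called in 6 of the 100 members, against 7.58% of all models and 1.55% of those within the maturity bound. Of the longer list 2 were called higher in older ants, where 4.45% of all models were, and of the shorter list 4 lower, where 3.14% were. Without the ants of a nurse-forage ratio over 0.5, 1 of the longer list was called higher and 2 lower, and 5 of the shorter list higher and 0 lower. Of all 10432 models in that fit, 601 were called higher and 549 lower, or 11% in either direction. Of the models within the maturity bound, 2.6% were called. The calls were few in both fits, so no turn is read from them. The median slopes on age were then -0.013 log2 per year in the longer list and 0.020 in the shorter, against 0.026 and -0.016 with all ants. Among the named models, evm.model.ctg20.50 fell by 0.095 ± 0.028 log2 per year of age (SE; edgeR adjusted p = 0.0166). The mean level differed between colonies in 80 of the 100 members, 41 of the longer and 39 of the shorter list, against 78.3% of all models, a share near the background.

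The members also followed what the ants did. In models holding length, age, maturity and colony, 30 of 50 in the longer list were higher in ants with more queen attending, against 4.1% of all models, and 23 of 50 in the shorter list were lower, against 4.2% (edgeR). Nest cleaning ran the other way: 22 of 50 in the longer list were lower in ants that cleaned more, against 2.96%, and 26 of 50 in the shorter list were higher, against 2.95%. With the nurse-forage ratio, 19 of 50 in the longer list were higher, against 3.54%, and 18 of 50 in the shorter list were lower, against 3%. Brood care was called higher in 5 of 50 of the longer list, against 2.26%, and lower in 4 of 50 of the shorter, against 2.73%. For none of the 4 labels was a member called in the opposite direction in these fits of all colonies. The same models recurred, since 15 of the longer list and 11 of the shorter were called for queen attending, nest cleaning and the ratio alike, and 13 and 15 for none of them.

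Queen attending and nest cleaning had no call when colony 4 was left out. Without it, edgeR called 0 members and 0 models in all for both labels, while 22 and 43 members passed an unadjusted p of 0.05, against 5.06% and 9.97% of all models. In colony 4 alone it called 58 members for queen attending, against 14.3% of all models, 61 for nest cleaning, against 26.5%, 36 for brood care, against 10.1%, and 14 for the ratio, against 1.44%. In colonies 2 and 3 alone it called 0 members for queen attending and 0 for nest cleaning. For queen attending 8 and 16 passed an unadjusted p of 0.05, against 2.24% and 4.48% of all models. For nest cleaning 1 and 18 did, against 5.37% and 8.1%. Most signs without colony 4 were those of the full set. Slopes on queen attending were positive in 50 of 50 of the longer list and 6 of 50 of the shorter, against 50 and 0 with all colonies, and on nest cleaning in 3 and 47, against 0 and 50. The median slopes on nest cleaning without colony 4 were -0.023 log2 per step of 1 in log2(tally + 1) in the longer list and 0.015 in the shorter, against -0.027 and 0.021 with all colonies. In colony 2 alone, slopes on nest cleaning were positive in 16 of 50 of the longer list and 25 of 50 of the shorter. Their medians there were -0.006 and -0.00015, so the shorter list did not lean. In colony 3 alone 6 of 50 and 40 of 50 were positive. The difference between colonies in the slopes on queen attending and nest cleaning was not tested. Nest cleaning had fewer calls in other fits too, among members and among all models. There were 5 members called without colony 3, against 1.54% of all models, and 11 without ants of a nurse-forage ratio over 0.5, against 2.32%. When runs of 10 consecutively numbered ants replaced colony in the model, 2 were called, against 0.201%. The median slopes in the 3 fits lay between -0.023 and -0.019 in the longer list and between 0.016 and 0.019 in the shorter.

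Calls for the nurse-forage ratio did not rest on colony 4, since 36 members were called without it, against 5.68% of all models. They numbered 12 without colony 2, against 2.38%, and 7 without colony 3, against 1.79%. Colonies 2 and 3 alone gave 0 and 7, against 0.131% and 1.19% of all models by edgeR, with 13 and 32 at an unadjusted p of 0.05, against 5.87% and 13.1%. For brood care the count was 38 without colony 3, against 10.2% of all models. It was 0 without colony 2 or colony 4, where edgeR left 24 and 4 members at an unadjusted p of 0.05, against 13.3% and 6.59%.

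Of the named models, evm.model.ctg33.8 had the steepest slopes on these labels. In colony 4 its lowest, median and highest values were 103.2, 210.3 and 329.3 CPM in the 55 ants seen attending the queen and 68.5, 155.4 and 362.1 CPM in the 49 not seen to. In colony 2 they were 102.8, 161.9 and 281.3 CPM in 41 attending ants and 99.2, 146.0 and 278.3 CPM in the other 46, and in colony 3 they were 112.9, 158.1 and 221.0 CPM in 51 attending ants and 117.5, 174.9 and 350.0 CPM in the other 47. The ranges overlapped throughout, and before adjustment for other labels the median of the attending ants was the higher one in colonies 4 and 2 and the lower one in colony 3.

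Each behaviour label was fitted by itself, with length, age, maturity and colony held. The slope of evm.model.ctg33.8 on queen attending was 0.11 ± 0.018 log2 for each step of 1 in log2(tally + 1), at an edgeR adjusted p of 7.04e-06. In colonies 2, 3 and 4 alone this model had slopes of 0.089 ± 0.029, 0.058 ± 0.026 and 0.17 ± 0.029 (SE). Its slope on nest cleaning was -0.076 ± 0.018 (edgeR adjusted p = 0.00343) and on the nurse-forage ratio 0.43 ± 0.11 log2 per unit (adjusted p = 0.00321). Without colony 2 these were -0.12 and 0.71, with maturity left out the slope on the ratio was 0.26, and without colony 4 the slope on queen attending was 0.068. Both evm.model.ctg8.220 and evm.model.ctg20.50 fell with queen attending, by 0.029 ± 0.0073 (edgeR adjusted p = 0.00466) and 0.055 ± 0.015 log2 (adjusted p = 0.00701). In colonies 2, 3 and 4 alone the slopes were -0.0065 ± 0.014, -0.019 ± 0.011 and -0.056 ± 0.012 for evm.model.ctg8.220, and -0.018 ± 0.024, -0.022 ± 0.024 and -0.12 ± 0.022 for evm.model.ctg20.50. Without colony 4 they were -0.012 and -0.018, neither called, and without colony 3 the slope of evm.model.ctg20.50 was -0.082. The slope of evm.model.ctg1.258 on queen attending was 0.0059 ± 0.0080, with an edgeR adjusted p of 0.754. A member near the top of the ranking by length thus need not be called for the behaviour labels.

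**Figure D3:**
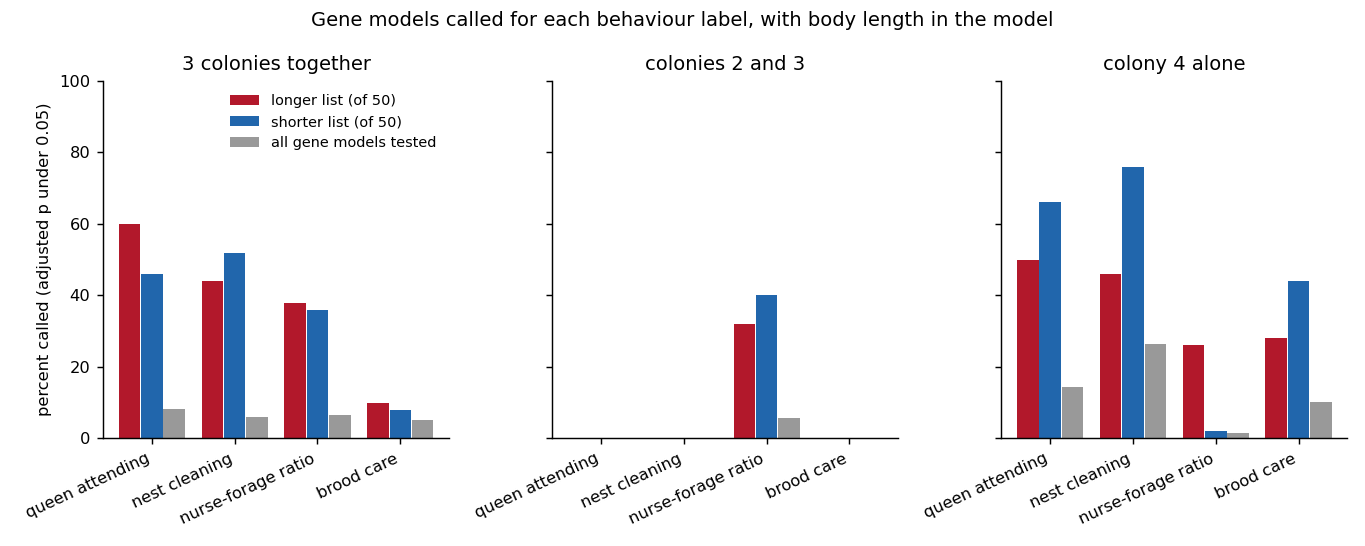
Share of gene models called (vertical axis, percent with an edgeR adjusted p under 0.05) for 4 behaviour labels, with red bars for the 50 of the longer list, blue for the 50 of the shorter list and grey for all models tested, in all colonies, in colonies 2 and 3, and in colony 4 alone. The red and blue bars stand above the grey ones for queen attending and nest cleaning in the left and right panels, and are at 0 for both in the middle panel.

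The bound on maturity is a bound on a mean, and behind it the members were tied to maturity differently in each colony. In the longer list the median Spearman correlation with maturity was -0.107, 0.221 and -0.181 in colonies 2, 3 and 4, and in the shorter list it was 0.117, -0.232 and 0.189. Of the longer list, 33 of 50 (66%) rose in rank with maturity in colony 3 and fell in both other colonies, a pattern held by 25.1% of the 2964 models within the bound. Of the shorter list, 38 of 50 (76%) had the mirror pattern, held by 18.6% of those models. Single values reached 0.595 in colony 3 and -0.380 in colony 2, so a mean near 0 did not stand for values near 0.

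The interaction of maturity and colony, tested after this had been seen, was called in 76 of the 100 members, 34 of the longer and 42 of the shorter list. It was called in 22.7% of all models tested and 19.6% of the models within the bound (edgeR). The bound on the mean used the maturity values of the same ants, so these counts are read as a description. Without colony 3 edgeR called 0 members, against 1.85% of all models. At an unadjusted p of 0.05 there were 10 members by edgeR, against 12.9% of all models. With length and age held, the median slopes on maturity in colonies 2, 3 and 4 were -0.049, 0.16 and -0.059 log2 in the longer list and 0.057, -0.12 and 0.048 in the shorter. All 4 named models were among those called. For evm.model.ctg33.8 the slopes were -0.025 ± 0.11, 0.37 ± 0.13 and -0.33 ± 0.15 (SE), and for evm.model.ctg20.50 they were 0.050 ± 0.089, -0.24 ± 0.11 and 0.19 ± 0.099.

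**Figure D4:**
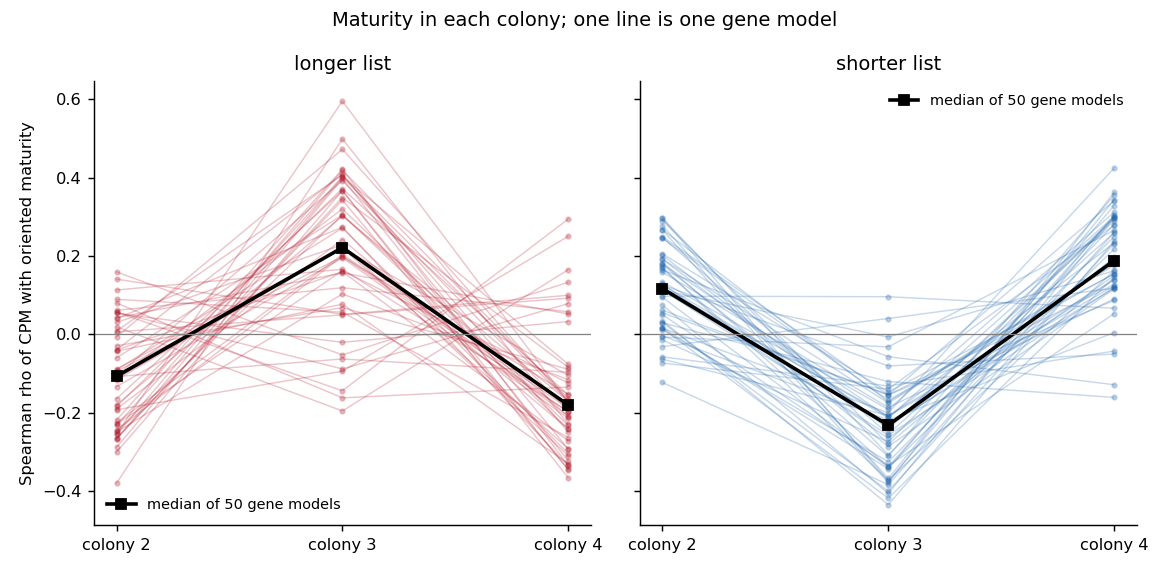
Spearman correlation of CPM with oriented maturity (vertical axis) in colonies 2, 3 and 4 for the longer list (left) and the shorter list (right), with one thin line per gene model and black squares for medians. The medians of the longer list are above 0 in colony 3 alone, at 0.221, and those of the shorter list are below 0 in colony 3 alone, at -0.232.

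The short ants of colony 3 that stood apart in the plot of the named models can be described by a label. Ants with a nurse-forage ratio over 0.5 were 12, 19 and 20 in colonies 2, 3 and 4, with median ages of 21.5, 32 and 28 months against 10, 13 and 13 months in the other ants. In colony 3 evm.model.ctg33.8 had a median of 227.3 CPM (134.2 to 350.0) in these ants and 156.8 CPM (112.9 to 328.5) in the others. In colony 2 the medians were 148.5 CPM (118.6 to 224.8) in these ants and 156.2 CPM (99.2 to 281.3) in the others, and in colony 4 they were 193.2 CPM (102.7 to 362.1) in these ants and 180.5 CPM (68.5 to 329.3) in the others. The medians of the 2 kinds of ant lay farthest apart in colony 3, a difference between colonies that was not tested, and there the ants of a high ratio were also shorter, with a median length of 8.82 against 9.41 in the others. Without the ants of a high ratio the interaction of maturity and colony was called in 33 members, against 6.06% of all models in that fit. Body length was called in 100 members there, against 39.4% of all models. Length is the contrast of the choice, and the ants of that fit were among those that chose the members, so this count supports nothing. The part of the ants of a high ratio in the pattern of colony 3 was not tested beyond these fits.

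Within the lists the members varied together, also after length, age and maturity had been taken out of log2(CPM + 1) within each colony. The median pairwise correlation over 289 ants was 0.285 in the longer list and 0.348 in the shorter, and -0.262 between a model of one list and a model of the other. These pairs share libraries and depth and the values are a description. Average linkage cut into 4 groups left the shorter list nearly whole, with 49 models, and divided the longer list into 34 and 15, with 1 model of each list in a pair of their own.

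The larger and the smaller group of the longer list differed in what else they followed. The larger had a median correlation of 0.407 within itself and -0.315 with the shorter list, and the smaller had 0.505 within itself, -0.179 with the shorter list and 0.182 with the larger group. The smaller group was steeper in length, with a median slope of 0.14 log2 per unit against 0.062 in the larger. Its median partial correlations were 0.397, 0.375 and 0.346 in colonies 2, 3 and 4, where those of the larger group were 0.449, 0.227 and 0.441. Of the smaller group, 3 of 15 were called for the interaction of maturity and colony, 0 for nest cleaning and 9 for queen attending, against 30, 22 and 21 of 34 in the larger. The 2 models with a called squared term of length were both in the smaller group. The groups were drawn from the same ants, so these counts carry no test.

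**Figure D5:**
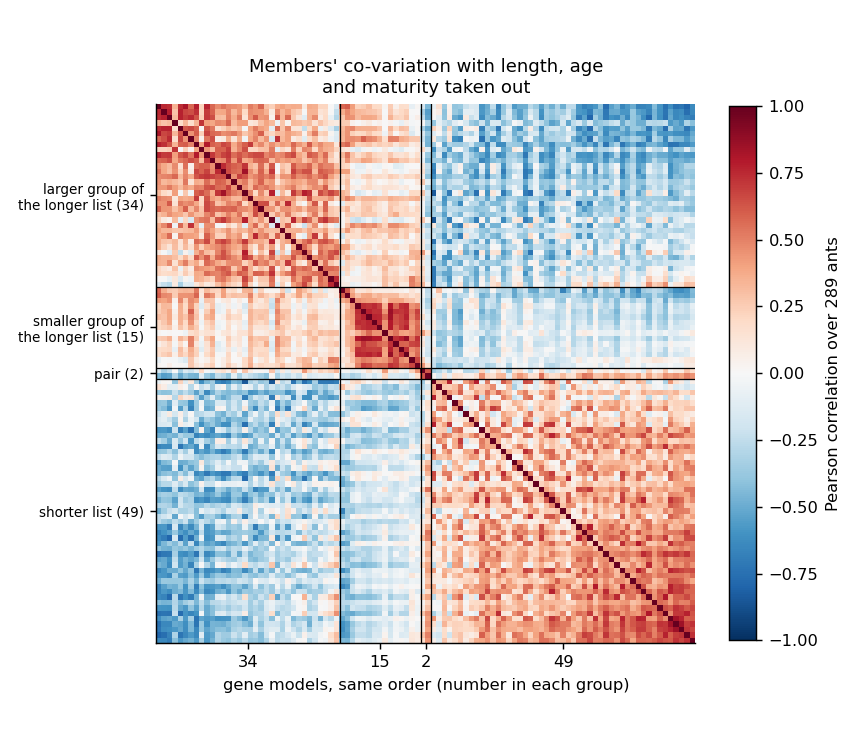
Pearson correlation over 289 ants (colour scale from -1 to 1) between each pair of the 100 members, with length, age and maturity taken out within colonies and members ordered by group (34, 15, 2 and 49 gene models). Red blocks on the diagonal are the groups, the smaller group of the longer list is the most uniform, and the blue block shows the larger group set against the shorter list.

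The members were spread over the assembly, with 38 contigs for the 50 of each list. Counting pairs on one contig whose numbers differ by at most 5, the longer list held 3 of 1225 pairs and the shorter list 2 of 1225, or 24.5 and 16.3 per 10000, against 8.44 per 10000 among the 8183 models. That the numbers follow the order along a contig is not stated in the file. Members of the 5 pairs had residual correlations between 0.229 and 0.858. Of the longer list, 4 of 50 (8%) were on contigs with 5 or fewer gene models in the table, all 4 in the smaller group, against 0 of the shorter list and 1.38% of the 8183 models. Reads shared by near-identical copies could be divided between models by the counting, and whether any member has such a copy was not examined here.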

How the data were processed

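Brain mRNA of 299 single ants was measured; the deposited values are whole-number counts per gene model, not normalized. RNA was extracted with Tri reagent for stranded KAPA libraries, per the labels' protocols. STAR and featureCounts were used per the submitters' processing notes; versions, genome build, annotation and strand setting are not given in the sources used here. Of counts from 1 to 20, 19.9% were odd, as when both mates of most read pairs are counted, so counts are not independent molecules.

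The members and lists were chosen with earlier results of these data known. Named models are the 2 highest and 2 lowest by r. Slopes came from edgeR 4.0.16's quasi-likelihood test (TMM, robust, filterByExpr by colony) on 289 labelled ants of 3 colonies, with colony, oriented maturity, age and body length, and Benjamini-Hochberg adjustment over all models tested; behaviour tallies entered as log2(tally + 1). limma 3.58.1 and DESeq2 1.42.0 were alternatives. The fits were tested on simulated data. Replicates are ants, and p-values measure spread between ants. Ants without labels were left out of all fits. Ant numbers recur across colonies. Over 210 same-numbered pairs the median correlation of deviations was 0.0393 (-0.568 to 0.748), and 79 exceeded 0.1. The consensus correlation by limma was 0.0118. Differently numbered pairs are not set beside these, so whether numbers pair ants is not settled, and the main fits took ants as unpaired.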

Additional observations from a re-analysis of the deposited data

Results flagged for a closer look

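The relation to maturity differed between colonies in 76 of the 100 members, against 22.7% of all models and 19.6% of those within the bound. The F-test of maturity slopes between colonies was added after the data had been seen. The choice used the maturity values of the same ants through a mean over colonies, so the test is read as a description. For the named models, all of which differed between colonies in this way, the edgeR adjusted p was 1.85e-06 for evm.model.ctg33.8, 1.06e-05 for evm.model.ctg1.258, 3.49e-06 for evm.model.ctg8.220 and 1.96e-05 for evm.model.ctg20.50. Colony 3 stood against colonies 2 and 4 in most members, and the cause was not tested. For evm.model.ctg1.258 the slopes on maturity in colonies 2, 3 and 4 were -0.037 ± 0.050, 0.18 ± 0.064 and -0.10 ± 0.054 log2, and for evm.model.ctg8.220 they were 0.12 ± 0.050, -0.17 ± 0.053 and 0.11 ± 0.054 (SE).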

How the results depend on the processing

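Counts below are members called of 100 unless stated; they are edgeR counts except for the replicate block, and settings beyond the planned ones (each colony alone, ants of a high nurse-forage ratio left out, the maturity by colony interaction) were chosen after seeing the data. The counts given here differ by over 1.5 times from those reported, and the counts under the other alternatives run stayed within 1.5 times. Without the 34 longest ants, the body length by colony interaction had 5, against 0.67% of all models. The squared term then had 0, against 0.00957%, and age 12, against 8.87% of all models and 2.5% of those within the maturity bound. The lists from the other colonies then had 23, 0 and 29 in colonies 2, 3 and 4. The squared term had 1 with DESeq2's size factors, against 0.497%, 5 with no filter, against 2.45%, and 4 with runs of 10 ants, against 0.612%. It had 0 without colony 2 or colony 4, against 0% and 0.0292%. Age had 2 without colony 3, against 6.01% of all models and 1.05% of those within the maturity bound. With maturity left out it had 22, against 44% and 6.21%. Colony differences had 35 without colony 4, against 39.8%. The counts for age without colony 3 and with maturity left out, and for colony differences without colony 4, were below the share over all models. Those for age were above the share within the bound. Queen attending had 0 without colony 4, against 0%, and 32 with runs, against 3.3%. It had 0 in colonies 2 and 3 alone, against 0% and 0.0102%. Nest cleaning had 5 without colony 3, against 1.54%, 0 without colony 4, against 0%, and 2 with runs, against 0.201%. It had 11 without ants of a high ratio, against 2.32%, and 0 in colonies 2 and 3 alone, against 0% in each. Brood care had 0, 38 and 0 without colonies 2, 3 and 4, against 1.12%, 10.2% and 0.136%. In each alone it had 0, 0 and 36, against 0.252%, 0% and 10.1%. The ratio had 12 without colony 2, against 2.38%, 7 without colony 3, against 1.79%, and 24 with maturity left out, against 12.4%. In colonies 2, 3 and 4 alone it had 0, 7 and 14, against 0.131%, 1.19% and 1.44%. The interaction of maturity and colony had 0 without colony 3, against 1.85%, and 33 without ants of a high ratio, against 6.06%. The slope of evm.model.ctg1.258 on the ratio, 0.0087 and not called, was -0.027 without colony 2 and -0.0097 with maturity left out. The causes were not tested. With ant number as a replicate block in limma, 80 members differed between colonies, against 78 by limma-voom without it. Of all models, 80.3% and 80.2% did. Colony cannot be told apart from anything done colony by colony.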

Other observations

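The 10 ants without labels could not enter any fit, but their expression of the lists can be set beside that of the labelled ants. For each ant the members' log2(CPM + 1), centred and scaled on the labelled ants of its colony, was averaged over each list. In the 3 unlabelled ants of colony 2 the longer list averaged -0.531, -0.466 and -0.0084 and the shorter list 0.481, 0.468 and 0.325, within the labelled ants' ranges of -1.45 to 1.41 and -1.67 to 1.76. In the 6 of colony 3 the longer list ran from -0.611 to 0.604 with a median of 0.021, and the shorter from -0.489 to 0.581 with a median of 0.015. The single unlabelled ant of colony 4 had 0.142 and -0.205. None lay outside the labelled ants of its colony.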
